A study of Mus musculus with 4 samples.

Results

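The 9 amino acid catabolic enzymes described here are tyrosine aminotransferase (Tat), 4-hydroxyphenylpyruvate dioxygenase (Hpd), fumarylacetoacetate hydrolase (Fah), tryptophan 2,3-dioxygenase (Tdo2), kynurenine 3-monooxygenase (Kmo), histidine ammonia-lyase (Hal), serine dehydratase (Sds), glycine decarboxylase (Gldc) and proline dehydrogenase (Prodh). Members were taken by gene symbol from the gene probes of the arrays, and all 9 were found, with 12 probes, among 30439 genes or transcripts on the array. The study asked how loss of the mitochondrial fission protein Drp1 in liver alters lipid handling and inflammation under a high-fat diet (HFD), and it used 4 one-color Agilent arrays of liver RNA, 1 per group and all on 1 slide. All livers came from male C57BL/6J mice on the HFD, for 24 weeks by the labels and for a range of weeks ending there by the methods. Cont mice were Drp1 flox/flox sibling littermates, and Drp1LiKO mice carried the same floxed alleles with Alb-Cre Tg/+, in which the albumin promoter drives Cre recombinase in hepatocytes, so other liver cells are not the target of the deletion. The 4 groups were Cont and Drp1LiKO livers with no refeeding named in the labels, read as fasted from the methods and marked as sharing raw data with an earlier submission, and Cont and Drp1LiKO livers refed for 4 h after a fast. Fasted livers were collected in the morning and refed livers in the afternoon, so feeding state and time of day cannot be told apart. Each group is 1 array, and the sources used here do not state how many mice each array stands for.

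The liver breaks down amino acids that are not needed for protein synthesis, and it sends their nitrogen to the urea cycle and their carbon to glucose, ketone bodies or oxidation. Several of the first enzymes of these pathways, among them Tat, Tdo2 and Sds, are classical targets of glucocorticoids and glucagon, which raise them in fasting, while insulin lowers them after a meal. Several steps take place in mitochondria: Kmo lies in the outer mitochondrial membrane, Prodh on the inner membrane, and Gldc is the glycine-cleaving subunit of the mitochondrial glycine cleavage system.

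Promoter sequences are shown for Tat, Tdo2, Hal and Gldc, because these are the members whose signal was higher in a Drp1LiKO liver than in its Cont liver by more than 2 measurement standard errors (SE). Each window holds the 250 bases before the start of the gene in the RefSeq annotation of GRCm38.p6, written 5′ to 3′ on the strand of the gene. The windows lie at chr8:109990186-109990435 (plus strand), chr3:81975729-81975978 (minus strand), chr10:93488518-93488767 (plus strand) and chr19:30175442-30175691 (minus strand). Capitals mark a CCAAT box, read as CCAAT or, on the other strand, ATTGG.
Tat: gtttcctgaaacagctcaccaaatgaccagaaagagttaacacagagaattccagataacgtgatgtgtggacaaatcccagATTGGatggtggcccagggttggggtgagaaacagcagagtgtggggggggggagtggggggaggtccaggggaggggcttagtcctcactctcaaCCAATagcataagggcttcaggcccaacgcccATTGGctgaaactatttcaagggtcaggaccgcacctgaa
Tdo2: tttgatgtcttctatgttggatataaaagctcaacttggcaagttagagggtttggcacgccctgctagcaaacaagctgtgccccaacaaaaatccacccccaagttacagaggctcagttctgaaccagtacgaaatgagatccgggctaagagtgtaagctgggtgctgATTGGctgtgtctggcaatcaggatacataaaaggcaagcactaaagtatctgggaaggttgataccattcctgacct
Hal: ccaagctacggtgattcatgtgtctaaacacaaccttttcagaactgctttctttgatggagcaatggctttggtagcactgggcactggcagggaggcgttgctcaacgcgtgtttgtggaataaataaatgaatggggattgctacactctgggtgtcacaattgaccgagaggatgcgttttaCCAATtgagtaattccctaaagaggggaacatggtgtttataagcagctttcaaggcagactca
Gldc: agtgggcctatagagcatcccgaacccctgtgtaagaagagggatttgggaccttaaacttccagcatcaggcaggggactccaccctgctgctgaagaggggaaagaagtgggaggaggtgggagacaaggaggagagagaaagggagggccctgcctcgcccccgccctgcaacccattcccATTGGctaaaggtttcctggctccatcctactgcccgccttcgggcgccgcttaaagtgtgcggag

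The RefSeq table held a promoter for 8 of the 9 members, with Sds not among them. The motifs searched on both strands were the core of the glucocorticoid response element TGTTCT, the core of the cAMP response element TGACG, the forkhead site TGTTTAC, the C/EBP-ATF response element TGATGNAAT, the HNF1 core GTTAAT and the CCAAT box CCAAT, none of which contains another. A CCAAT box was present in 4 of the 8 windows, against 33.8% of all 32851 promoters in the table. Tat had 3 of them, starting 168, 72 and 40 bases before the gene, and Tdo2, Hal and Gldc had 1 each, at 78, 64 and 66 bases. The windows with a CCAAT box were those of the members printed above. This overlap was seen after the values were known and was not tested. The other motifs matched in 0 of the 8 windows, against 16.1% of all promoters for TGTTCT, 17.8% for TGACG, 3.17% for TGTTTAC, 0.816% for TGATGNAAT and 6.43% for GTTAAT. The absence of a match says only that these letters do not stand in this window.

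Signals are given on the log2 scale relative to the 75th percentile of the gene spots of the same array, so that 0 is the level of that percentile. Its processed signal was 461 on the fasted Cont, 722 on the fasted Drp1LiKO, 357 on the refed Cont and 526 on the refed Drp1LiKO array. The scanner software marked 48.7% to 58.2% of gene spots per array as well above background and 0 as saturated. Dnm1l, the gene of Drp1, has 1 probe, whose log2 level was 1.02 and 0.81 in the fasted Cont and Drp1LiKO livers and 0.66 and 0.54 in the refed ones, differences of -0.21 and -0.12. The place of this probe relative to the deleted part is not given in the sources used here, so it does not check the genotype labels, and groups are named by their labels throughout. Of 9 hepatocyte markers, 9 were well above background on all 4 arrays. Genes that are known to be high in refeeding, such as Thrsp, were higher in the refed liver for 8 of 8 measured in Cont (7 under some of 6 scalings of the arrays) and for 7 of 8 in Drp1LiKO. Genes known to be high in fasting, of which Pck1 is also a periportal marker here, were lower in the refed liver for 7 of 9 in Cont and 9 of 9 in Drp1LiKO. The exceptions in Cont, G6pc at 1.38 and Fgf21 at 1.47, were both called higher in the refed liver, so this list does not settle the feeding state, which the labels leave unnamed for 2 arrays.

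Scaling bears on these enzymes, all of which have bright signals. Every member was well above background on all 4 arrays, and only 10.5% of all genes reached the mean signal of the dimmest member, Gldc. These 3211 bright genes had a median difference between Drp1LiKO and Cont of -0.28 on the log2 scale after fasting and -0.14 after refeeding, and a median difference between refed and fasted of 0.28 in Cont and 0.39 in Drp1LiKO. Under quantile normalization the same medians were 0.00, 0.02, 0.05 and 0.05. Differences are therefore read beside these medians, and any sign that turned under another scaling is named with its value. The SE of a difference comes from the error model of the scanner software, was 0.20 on the log2 scale for all 9 members, and covers measurement error only. With 1 array per group there is no replicate check of any difference. A gene was called at a difference of at least 2-fold with the brighter signal well above background.

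**Figure D1:**
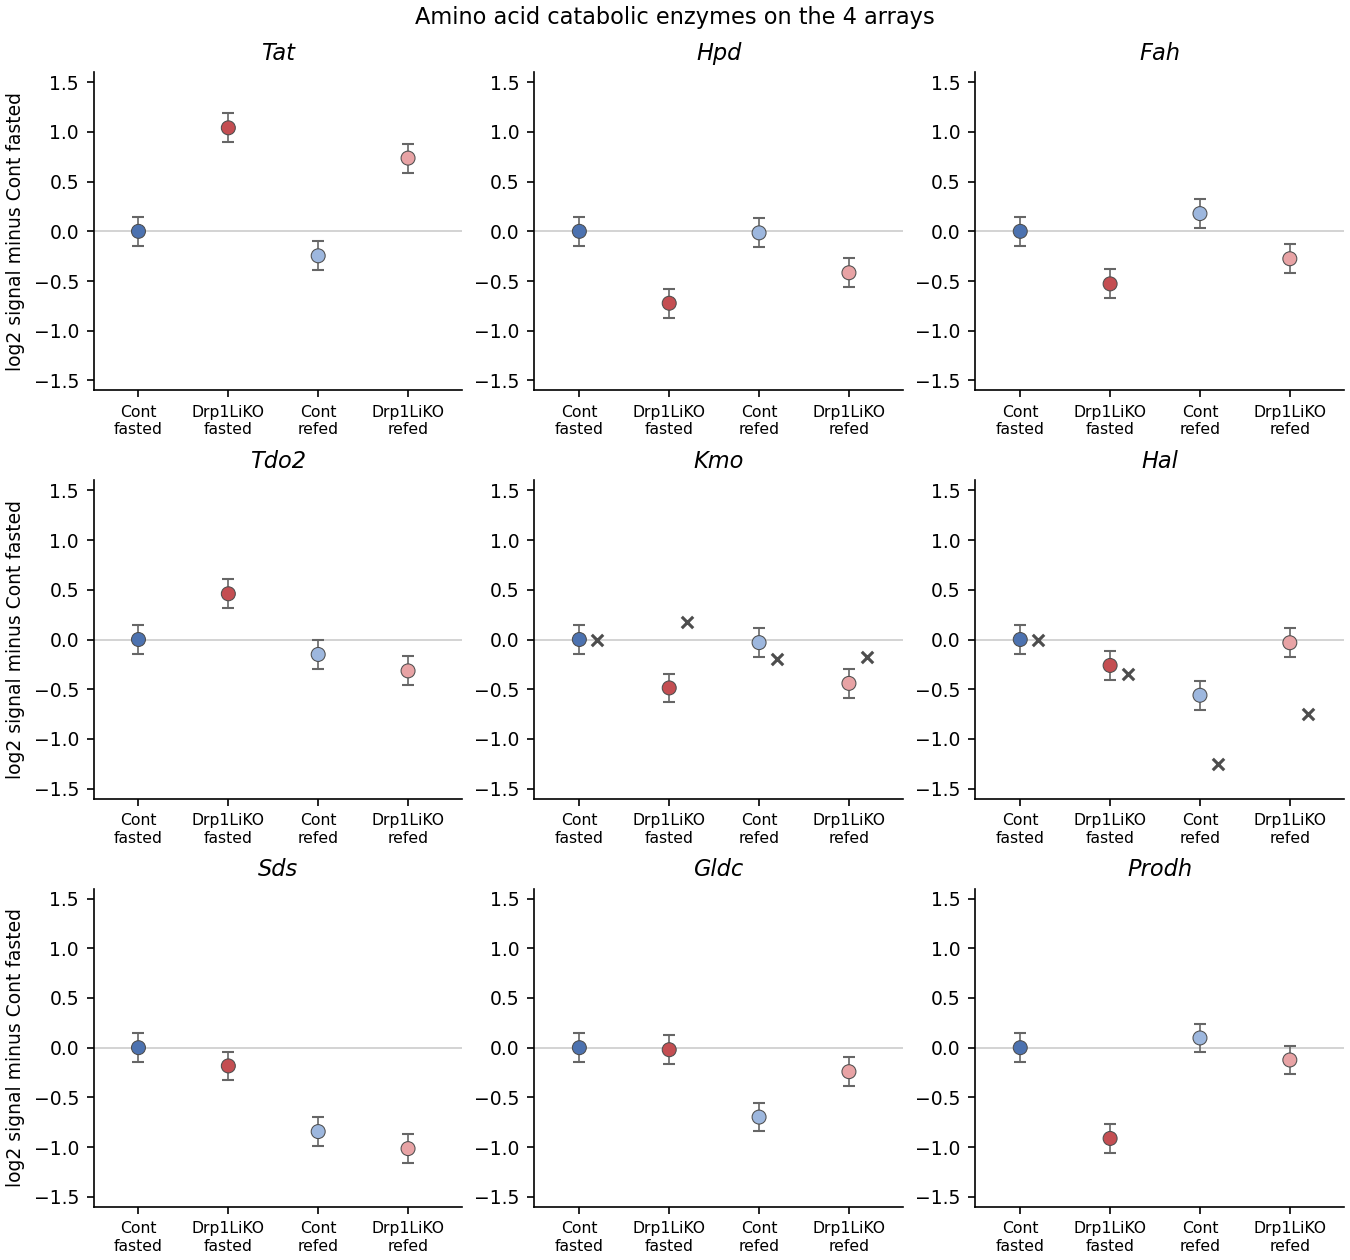
Log2 signal of each of the 9 enzymes on the 4 arrays, relative to the 75th percentile of each array and drawn as the difference from the fasted Cont liver; circles are the probe that stands for the gene, bars are 1 measurement SE of a single signal, and crosses are a second probe of Kmo and Hal. Tat is above the fasted Cont liver on both Drp1LiKO arrays, and Sds is below it on both refed arrays.

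Tat, which removes the amino group of tyrosine in the first step of its breakdown, was the member that differed most between the genotypes. Its processed signal was 10164 in the fasted Cont, 32771 in the fasted Drp1LiKO, 6641 in the refed Cont and 19325 in the refed Drp1LiKO liver. On the scaled log2 level these are 4.46, 5.50, 4.22 and 5.20. Both Drp1LiKO livers lay above both Cont livers. Drp1LiKO minus Cont came to 1.04 (SE 0.20), or 2.06-fold, in the fasted pair and to 0.98 (SE 0.20), or 1.98-fold, in the refed pair. The 2 pairs have no array in common, whereas each genotype comparison shares its arrays with the refeeding comparisons. Refed minus fasted was -0.25 in Cont and -0.30 in Drp1LiKO, within 2 measurement SE, but -0.43 and -0.71 under quantile normalization and -0.49 and -0.66 under cyclic loess, beyond it. The bright genes, described above, had positive medians in both of these comparisons. The genotype difference was positive under all 6 scalings and lay between 0.98 and 1.37 after fasting and between 0.98 and 1.14 after refeeding. Tat was called after fasting, other than under median scaling (0.98). After refeeding it missed the 2-fold limit by a small margin and passed it under the 5 other scalings. Of 18040 genes that could be called after fasting, 8.06% were called higher and 5.19% lower, and of 17446 after refeeding, 8.05% and 6.33%.

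Among the 3211 bright genes, 32 had a genotype difference at least as high as that of Tat after fasting, 43 after refeeding, and 22 in both feeding states, or 0.685%, Tat itself included in each count. The Tat probe lies at chr8:112523207-112523266 on the plus strand of the mm9 build, as given in the scanner files. In whole liver RNA, a higher level in hepatocytes and a larger share of the cells that express the gene cannot be told apart. The 8 periportal hepatocyte markers label the zone around the portal vein. Their median genotype difference was 0.26 after fasting and 0.19 after refeeding, positive under all 6 scalings, but they were mixed. After fasting 5 were positive and 3 negative, and after refeeding 6 and 2, with 4 to 8 and 6 to 7 positive over the scalings. Cdh1 (1.01 and 1.74) and Aldh1b1 (1.15 and 1.91) were called higher in both feeding states. Cyp2f2 was negative in both, at -0.26 and -0.19, and Pck1 after refeeding, at -0.51. The 8 pericentral markers had medians of -0.65 and -0.69, negative under all 6 scalings, and were mixed. After fasting 3 were positive and 5 negative, with Rhbg (1.21) and Axin2 (1.09, but 0.12 under another scaling) called higher and Slc1a2 (-1.17) called lower. After refeeding 2 were positive and 6 negative, with glutamine synthetase (Glul) called lower at -1.02, a call lost under another scaling (-0.84). The part of either marker list in the Tat difference was not tested.

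Hpd and Fah, which act later in the tyrosine pathway, had the opposite sign to Tat, while homogentisate dioxygenase (Hgd), which acts between them, was positive. Hpd, which makes homogentisate from the product of Tat, had log2 levels of 7.19 in the fasted Cont, 6.47 in the fasted Drp1LiKO, 7.17 in the refed Cont and 6.77 in the refed Drp1LiKO liver. Both Cont livers were above both Drp1LiKO livers. The difference for Hpd was -0.72 (SE 0.20) after fasting and -0.40 (SE 0.20) with refeeding, and it stayed negative under all 6 scalings, between -0.78 and -0.34 and between -0.40 and -0.18. Fah, which splits fumarylacetoacetate in the last step, had levels of 5.83, 5.30, 6.01 and 5.55 in the same order of arrays. The 2 genotype differences of Fah were -0.53 and -0.45 (SE 0.20 each), again negative under all 6 scalings. Relative to the bright genes, with medians of -0.28 and -0.14, the distance of Hpd and Fah from the bulk was smaller than their raw difference. The probes of Hpd and Fah are 60-base probes whose mm9 positions span 2124 and 817 bases, so each crosses an exon junction.

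Of the 9 listed genes of phenylalanine and tyrosine degradation, 9 were measured. The genotype difference was positive for 3 and negative for 6 of them in each feeding state, and Tat alone was called, after fasting. The positive ones besides Tat were Hgd, at 0.18 and 0.30, and monoamine oxidase A (Maoa), at 0.23 and 0.09, all under 2 measurement SE, and Maoa turned negative under another scaling in both states. Depending on the scaling, 2 or 3 of the 9 were positive after fasting and 3 or 4 after refeeding.

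Tdo2, which opens the indole ring of tryptophan, was high in the fasted Drp1LiKO liver. Its log2 levels were 4.25 in the fasted Cont, 4.71 in the fasted Drp1LiKO, 4.10 in the refed Cont and 3.94 in the refed Drp1LiKO liver. The fasted Drp1LiKO liver stood above the other 3, whose neighbouring levels were within 2 measurement SE of each other. For Tdo2 the genotype difference was 0.46 (SE 0.20) on the fasted and -0.17 (SE 0.20) on the refed arrays, with a range over scalings of 0.40 to 0.75 and of -0.17 to -0.03. Refed minus fasted was -0.15 (SE 0.20) in Cont and -0.78 (SE 0.20) in Drp1LiKO. The refeeding difference was thus more negative in Drp1LiKO by 0.63, with an SE of 0.29. It kept its sign under all 6 scalings.

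Kmo, which hydroxylates kynurenine further down the same pathway, was read by 2 probes that disagreed on the genotype. The brighter probe had log2 levels of 5.11, 4.62, 5.08 and 4.67 in the fasted Cont, fasted Drp1LiKO, refed Cont and refed Drp1LiKO livers. For this probe Drp1LiKO minus Cont was -0.49 (SE 0.20) in fasted and -0.41 (SE 0.20) in refed livers. The dimmer probe had levels of 2.51, 2.69, 2.31 and 2.34 and genotype differences of 0.17 (SE 0.20) and 0.03 (SE 0.20). Both probes lie on the plus strand of chromosome 1 in mm9, at 177590673-177590732 and 177590341-177590400, and the files assign them to the same transcript. The sign of the Kmo difference thus rests on the probe, while for the brighter probe alone it was negative under all 6 scalings.

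The widest differences in the tryptophan list came from its other genes. Acmsd, which diverts the pathway away from NAD synthesis, was higher in Drp1LiKO by 1.36 (SE 0.26) after fasting and 2.32 (SE 0.32) after refeeding. Its signal is dim, with a fasted Cont level of -2.92, and its difference went down to 0.77 and 1.23 under other scalings. Haao, which acts just before Acmsd, was lower in Drp1LiKO, at -1.26 (SE 0.20) and -1.12 (SE 0.20) on the log2 scale, with ranges of -1.32 to -0.94 and -1.12 to -0.93. Among the 68 measured degradation genes outside the 9 members, these 2 were called in the same direction in both feeding states under the main scaling. Under another scaling the calls of Haao in both states and that of Acmsd after fasting were lost. Of the 11 tryptophan genes, 4 had a positive and 7 a negative genotype difference after fasting, and 3 and 7 of the 10 usable after refeeding, with 4 positive after fasting and 3 after refeeding under every scaling.

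Hal, which releases ammonia from histidine, differed between the genotypes in the refed livers. The probe that stands for it had log2 levels of 4.90 in the fasted Cont, 4.64 in the fasted Drp1LiKO, 4.34 in the refed Cont and 4.87 in the refed Drp1LiKO liver. The refed Cont liver was the lowest of the 4. It lay below the fasted Cont and the refed Drp1LiKO liver by more than 2 measurement SE but within that of the fasted Drp1LiKO liver. The fasted genotype difference of Hal was -0.26 (SE 0.20), shrinking to 0.00 under quantile normalization, and the refed one was 0.53 (SE 0.20), between 0.53 and 0.68 over the scalings. A second, dimmer probe, which the files assign to another transcript of the gene, gave -0.35 (SE 0.20) and 0.50 (SE 0.21). Both probes were lower in the refed than in the fasted Cont liver, at -0.56 (SE 0.20) and -1.25 (SE 0.21). In Drp1LiKO the probes differed, with refed minus fasted at 0.23 (SE 0.20) and -0.40 (SE 0.20), and the first of these turned to -0.09 under quantile normalization. The refeeding differences of the genotypes were apart by 0.79 (SE 0.29) for the first probe and 0.85 (SE 0.29) for the second, positive under all 6 scalings for the first.

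The 3 other histidine genes, Uroc1, Amdhd1 and Ftcd, had negative genotype differences in both feeding states, though Amdhd1 turned to 0.02 after fasting and Ftcd to 0.10 after refeeding under another scaling. Over the scalings, 0 or 1 of the 4 genes of this list was positive after fasting and 1 or 2 after refeeding.

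Sds, which turns serine into pyruvate for gluconeogenesis, was lower in both refed livers. Its log2 levels were 3.75 in the fasted Cont, 3.56 in the fasted Drp1LiKO, 2.90 in the refed Cont and 2.73 in the refed Drp1LiKO liver. Neither refed liver reached the level of a fasted one. Refed minus fasted was -0.84 (SE 0.20) in Cont and -0.83 (SE 0.20) in Drp1LiKO, and these 2 values differed by 0.01 with an SE of 0.29, so a sizeable difference either way cannot be seen at this precision. The refeeding difference lay between -1.01 and -0.84 in Cont and between -1.07 and -0.74 in Drp1LiKO over the scalings. By genotype Sds differed by -0.18 (SE 0.20) in the fasted state, turning to 0.03 under quantile normalization, and by -0.17 (SE 0.20) in the refed state. The second Sds probe was well above background on the fasted Drp1LiKO array alone, where it was at least 1.67-fold brighter than on the fasted Cont array and at least 2.51-fold brighter than on the refed Drp1LiKO array. Each bound divides the bright signal by whichever is higher on the other array, the signal of this probe or the lowest one marked as well above background.

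Gldc, which cleaves glycine, was also lower in the refed than in the fasted Cont liver. Its log2 levels were 3.22 in the fasted Cont, 3.20 in the fasted Drp1LiKO, 2.53 in the refed Cont and 2.98 in the refed Drp1LiKO liver. The refed Cont liver was the lowest, and the other 3 were within 2 measurement SE of their neighbours under the main scaling. Refed minus fasted was -0.70 (SE 0.20) in Cont, between -0.85 and -0.70 over the scalings, and -0.22 (SE 0.20) in Drp1LiKO, between -0.45 and -0.13, the former under quantile normalization and beyond 2 measurement SE. Its genotype difference in fasted livers was -0.02 (SE 0.20), of either sign depending on the scaling with 0.18 as its highest value, and in refed livers 0.46 (SE 0.20), between 0.46 and 0.55 over the scalings. Of the 11 measured genes of serine, glycine and threonine degradation, 1 had a positive genotype difference after fasting and 3 after refeeding, with 1 to 3 and 3 over the scalings, and 0 were called.

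Prodh, which starts the oxidation of proline, was low in the fasted Drp1LiKO liver. Its log2 levels were 5.18 in the fasted Cont, 4.26 in the fasted Drp1LiKO, 5.27 in the refed Cont and 5.05 in the refed Drp1LiKO liver. The fasted Drp1LiKO liver stood below the other 3, which were within 2 measurement SE of their neighbours. Between the genotypes Prodh differed by -0.91 (SE 0.20) after the fast and by -0.22 (SE 0.20) after the meal, negative under all 6 scalings. Refed minus fasted was 0.10 (SE 0.20) in Cont, turning to -0.16 under quantile normalization, and 0.79 (SE 0.20) in Drp1LiKO, between 0.42 and 0.88 over the scalings. The bright genes also had a positive median there, 0.39, and Prodh exceeded it. All 5 genes of proline and hydroxyproline degradation, with Prodh2, Aldh4a1, Hoga1 and Grhpr, had a negative genotype difference in both feeding states under all 6 scalings, and 0 of them were called.

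**Figure D2:**
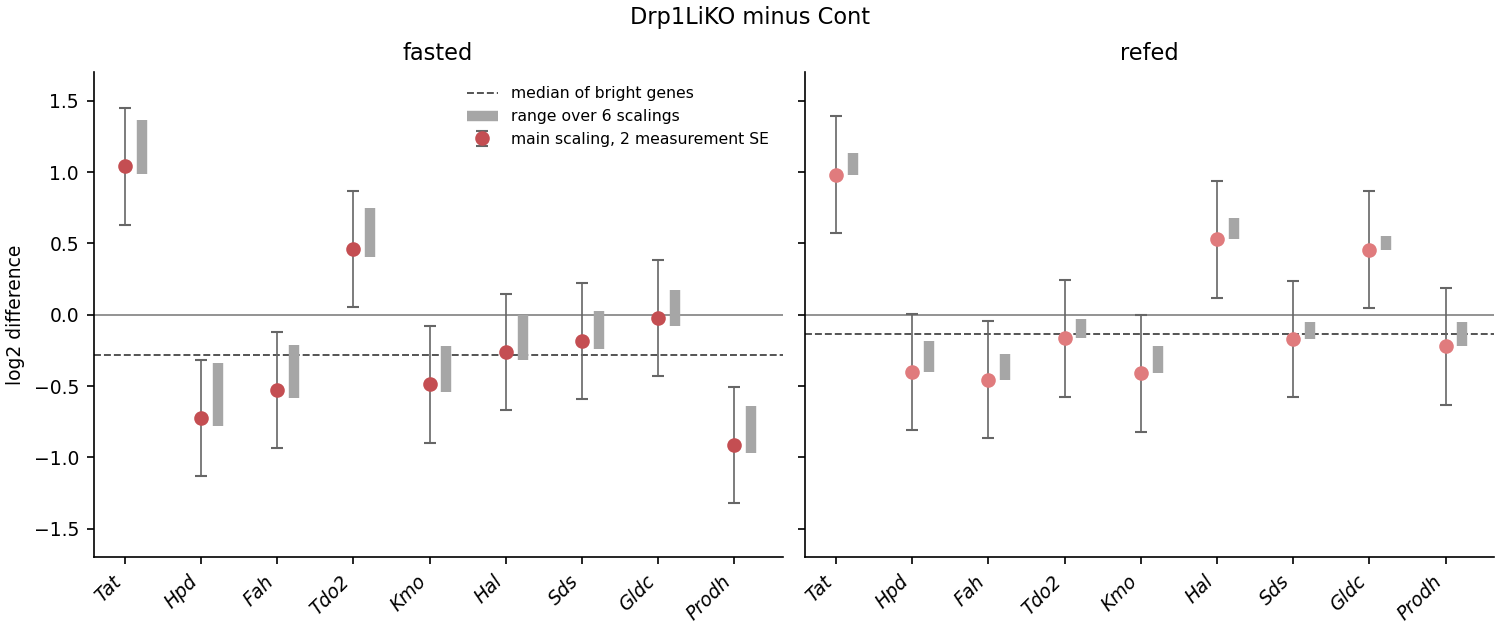
Log2 difference of each enzyme between Drp1LiKO and Cont after fasting (left) and after refeeding (right); points with bars are the main scaling with 2 measurement SE, grey bars span 6 scalings, and the dashed line is the median of the 3211 bright genes. Tat stands at 1.04 and 0.98, and the grey bars of Sds and Gldc cross 0 after fasting.

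Over the 9 members, the genotype difference after fasting was positive for 2 and negative for 7, with a median of -0.26, and it exceeded 2 measurement SE for 6, namely Tat and Tdo2 upwards and Hpd, Fah, Kmo and Prodh downwards. After refeeding it was positive for 3 and negative for 6, with a median of -0.17. It exceeded 2 measurement SE there for Tat, Hal and Gldc upwards and for Fah and Kmo downwards. Under quantile normalization the upward ones and Prodh stayed beyond 2 measurement SE, and the others did not. Hpd was then at -0.40, Fah at -0.23 and Kmo at -0.22 after fasting, and Fah at -0.32 and Kmo at -0.22 after refeeding. The member medians were close to those of the bright genes, and under quantile normalization they were 0.00 and -0.05. One member, Tat, was called higher after fasting, and 0 were called lower. After refeeding 0 members were called. Against the shares of 8.06% higher and 5.19% lower over all genes after fasting, and 8.05% and 6.33% after refeeding, calls were rarer among bright genes, 1.03% of which were called higher and 3.02% lower after fasting, and 1.31% and 3.27% after refeeding. The members' own count of 1 in 9 is too small to set apart from either share.

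**Figure D3:**
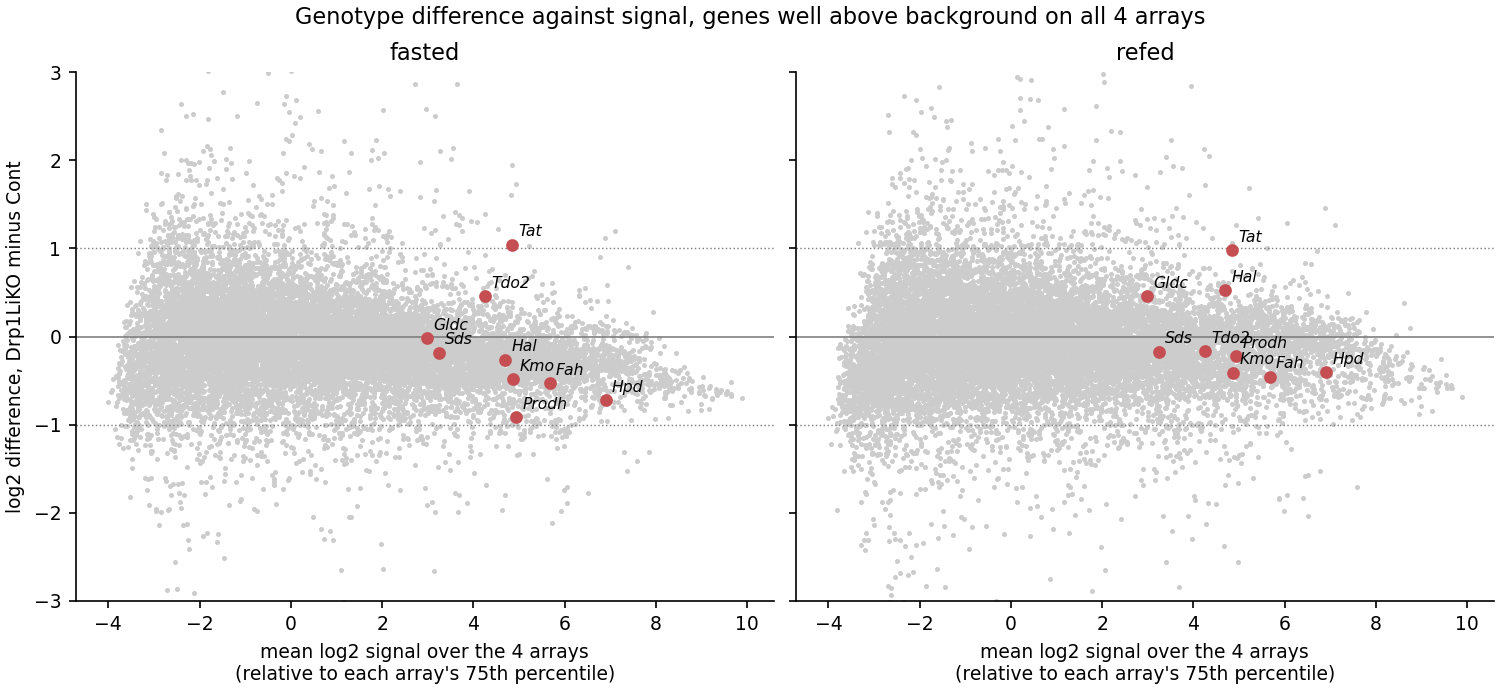
Log2 genotype difference (Drp1LiKO minus Cont) against the mean log2 signal over the 4 arrays for the 14447 genes marked well above background on each (grey) and the 9 enzymes (red), after fasting (left) and after refeeding (right); dotted lines mark 2-fold, and 27 and 38 genes lie outside the vertical axis. The cloud bends below 0 at high signal, and Tat lies on its upper edge.

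The one test the design allows is a limma fit of genotype plus feeding over all 4 arrays, which has 1 residual degree of freedom and counts any interaction as error. For Tat, limma gave a genotype effect of 1.01 (SE 0.14) with an adjusted p of 0.102, positive in 2 of 2 feeding states. The adjusted p for Tat lay between 0.036 and 0.260 over the alternatives. It passed 0.05 with an intensity trend (0.044), with normexp background correction (0.036) and with genes restricted to those well above background on all 4 arrays (0.036). In the last of these the share of all genes called by limma was 8.4%, against 2.83% with the trend and 2.97% with normexp. As written, limma called 0 members and 0 of 16744 genes for genotype, or 0%, with 4746 genes at an unadjusted p under 0.05. At that unadjusted level stood 4 members, Tat upwards and Fah, Hpd and Kmo downwards, with limma effects of -0.49, -0.56 and -0.45. Under quantile normalization these 3 effects were -0.28, -0.33 and -0.22, with unadjusted limma p of 0.113, 0.081 and 0.166, and with the median over probes Kmo was at -0.17, with an unadjusted limma p of 0.290.

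Refeeding differences were smaller than genotype differences for Tat and larger for Sds. In Cont, refed minus fasted was negative for 7 and positive for 2 of the 9 members, with a median of -0.15 against 0.28 for the bright genes. It was beyond 2 measurement SE for Sds, Gldc and Hal, all downwards. The 7 members other than Fah and Prodh were negative under all 6 scalings. In Drp1LiKO it was negative for 4 and positive for 5, with a median of 0.05, and beyond 2 measurement SE for Tdo2 and Sds downwards and Prodh upwards. The sign in Drp1LiKO turned with the scaling for Hpd (from 0.31 to -0.22), Fah (from 0.25 to -0.17), Kmo (from 0.05 to -0.28) and Hal (from 0.23 to -0.09), each second value being under quantile normalization. No member was called in either genotype. Of all genes, 4.47% were called higher and 5.83% lower on refeeding in Cont, and 5.61% and 7.15% in Drp1LiKO. Limma called 0 members and 0% of 16744 genes for refeeding, with 4414 genes at an unadjusted p under 0.05. The lowest adjusted p among the members was 0.169, for Sds, whose limma effect was -0.84 (SE 0.14), lower in 2 of 2 genotypes.

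**Figure D4:**
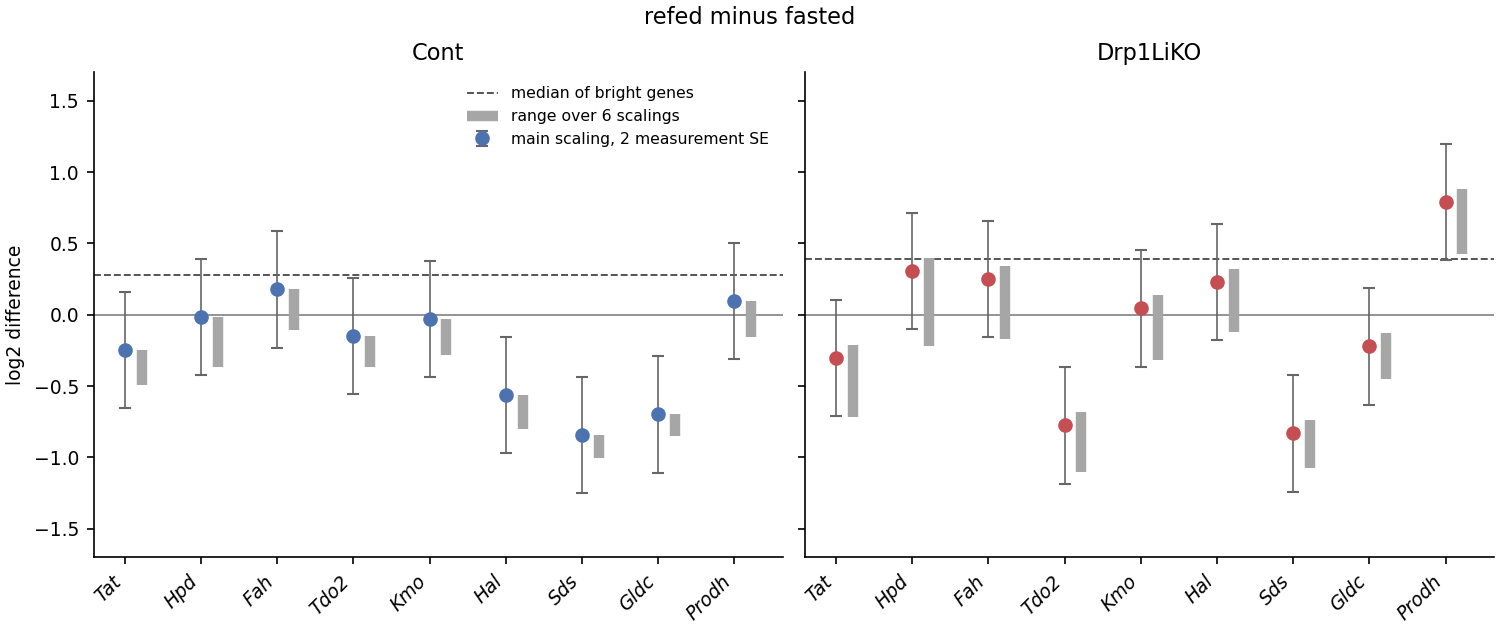
Log2 difference of each enzyme between the refed and the fasted liver in Cont (left) and in Drp1LiKO (right), drawn as in the plot of genotype differences. Sds is near -0.84 in both genotypes, and in Drp1LiKO the grey bars of Hpd, Fah, Kmo and Hal cross 0.

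The refeeding differences of the genotypes were apart by more than 2 measurement SE for 3 members. Hal was at 0.79 and Prodh at 0.69, both more positive in Drp1LiKO, and Tdo2 was at -0.63, each with an SE of 0.29. All 3 kept their sign under all 6 scalings. No member was at 2-fold in this comparison, in which 6.58% of 18963 genes were 2-fold higher and 8.31% lower. These values use all 4 arrays and have no test.

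The other genes of amino acid degradation had medians closer to that of the bright genes than to Tat. Of 71 further listed genes, 68 could be used, and Tdh, Asrgl1 and Gadl1 were not well above background. After fasting the genotype difference was positive for 11 and negative for 57 of them, with a median of -0.39, and 2 were called higher and 3 lower. After refeeding it was positive for 15 and negative for 52, of the 67 usable there, with a median of -0.33, and 3 were called higher and 2 lower. Over the scalings the medians reached -0.10 and -0.19, and 11 to 19 were positive after fasting and 15 to 22 after refeeding. For comparison, the median of all genes that could be called was -0.08 after fasting and -0.04 after refeeding. Of those genes 8.06% were called higher and 5.19% lower after fasting, and 8.05% and 6.33% after refeeding. Among bright genes the shares were 1.03% and 3.02% after fasting, and 1.31% and 3.27% after refeeding.

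Calls in the other lists were few. In the list of alanine, aspartate, glutamate and asparagine degradation, the mitochondrial alanine aminotransferase Gpt2 was at 1.28 and 0.34 (SE 0.20 each) in the fasted and refed pairs. The cytosolic aspartate aminotransferase Got1 was at 0.46 (SE 0.20) after fasting and 2.13 (SE 0.20) after refeeding. In sulfur amino acid degradation, cystathionine gamma-lyase (Cth) was at 0.76 and 1.11, and cysteine sulfinate decarboxylase (Csad) at 0.07 and -1.61. In the tryptophan list, kynurenine formamidase (Afmid) was at -1.05 after fasting, a call lost under another scaling (-0.94). These 5 genes, each called in 1 feeding state, were named after their values were seen. In branched-chain amino acid degradation, 18 of 19 genes were negative after fasting and 16 of 19 after refeeding, with 0 calls, and the count of positive genes was 1 to 7 and 2 to 4 over the scalings. In lysine degradation, 6 of 6 were negative after fasting and 5 of 5 after refeeding, where 1 was positive under another scaling. One of these, Aadat, which is also in the tryptophan list, was at -2.79 after fasting (-2.86 to -1.55 over the scalings) and was not well above background on either refed array.

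On refeeding, the 68 genes had a median of 0.02 in Cont and 0.09 in Drp1LiKO, and both turned negative under other scalings, down to -0.19 and -0.20. In Cont 2 were called lower and 0 higher, and in Drp1LiKO 1 was called lower and 0 higher. None was called in the same direction in both genotypes. Over all genes 4.47% were called higher and 5.83% lower in Cont, and 5.61% and 7.15% in Drp1LiKO. Among bright genes the shares were 0.872% and 0.685% in Cont, and 2.65% and 1.25% in Drp1LiKO.

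**Figure D5:**
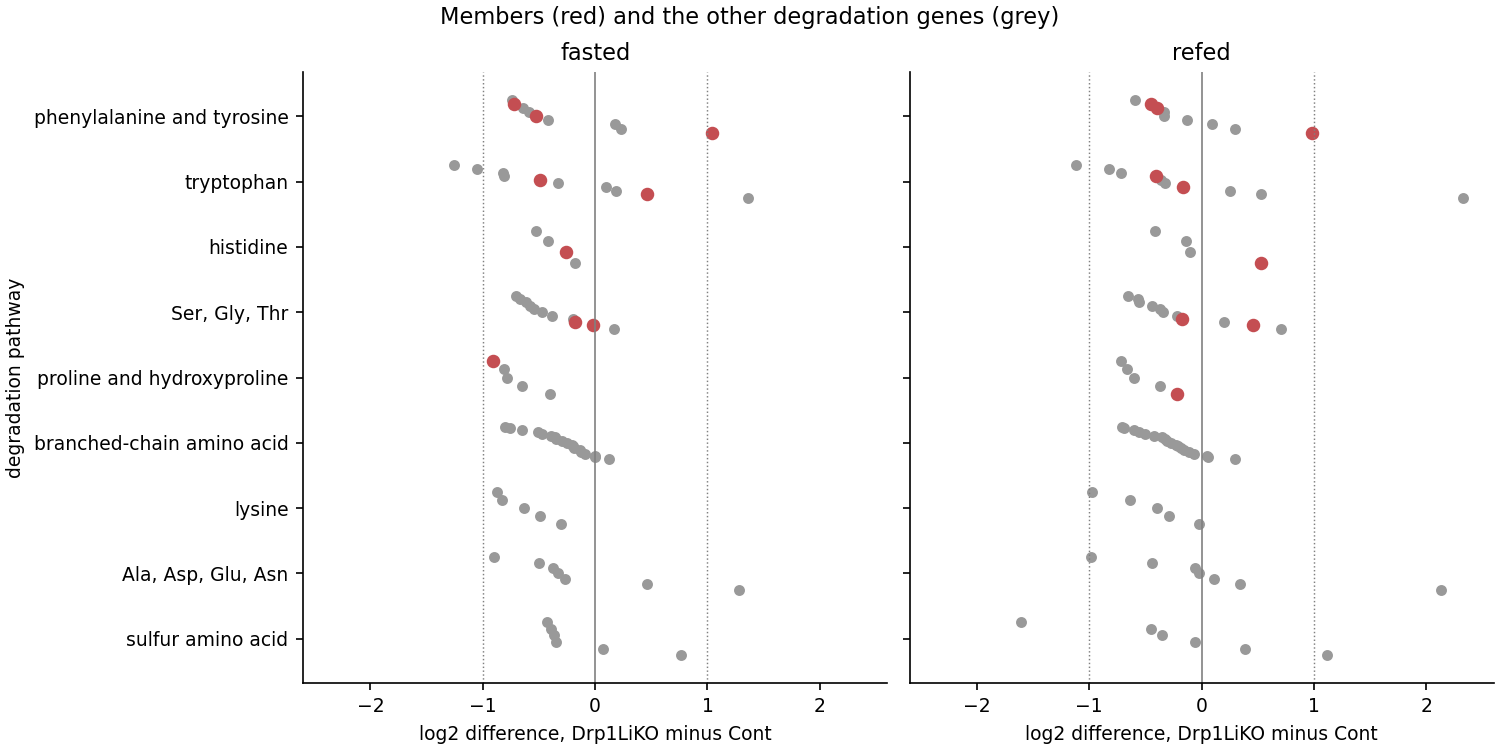
Log2 genotype difference (Drp1LiKO minus Cont) of the 9 enzymes (red) and 67 other degradation genes well above background on all 4 arrays (grey), by pathway, after fasting (left) and after refeeding (right); dotted lines mark 2-fold. Most points lie below 0 in both panels under this scaling, and Tat is the red point furthest to the right.

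Transcription factors and receptors that control these enzymes were measured on the same arrays. Of 14 listed regulators, 3 had a positive and 11 a negative genotype difference after fasting, and 4 and 10 after refeeding, with 2 to 5 and 4 positive over the scalings. The glucocorticoid receptor gene Nr3c1 was at -0.18 and -0.11. The forkhead factor Foxa1 was called lower after fasting, at -1.10, and stood at 0.35 after refeeding. Atf4, a factor of the amino acid response, was at 0.61 and 0.51, positive under all 6 scalings. On refeeding, Foxa1 (-1.39) and the coactivator Ppargc1a (-1.02) were called lower in Cont and the insulin receptor gene Insr (-1.25) in Drp1LiKO. The calls of Ppargc1a and Insr were lost under other scalings, where they reached -0.66 and -0.91.

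Of 8 glucocorticoid-responsive genes, 4 were positive and 4 negative for genotype after fasting, and 3 and 5 after refeeding, with 4 to 5 and 3 to 4 positive over the scalings. The kinase gene Sgk1 was called higher after fasting, at 1.496, and was at -0.01 after refeeding, of either sign over the scalings. The lipocalin gene Lcn2 was called higher after refeeding, at 1.696, and was at -0.69 after fasting. Under the main scaling Tsc22d3 (0.83 and 0.55) and Mt2 (0.43 and 0.74) were positive in both feeding states without a call. Fkbp5 (-0.29 and -0.41), Per1 (-0.19 and -0.06) and Dusp1 (-0.01 and -0.54) were negative in both. These further genes were named after their values were seen. Of 9 fasting-high genes, 7 were positive for genotype after fasting, with Igfbp1 at 3.68, and 3 after refeeding, with Igfbp1 at 1.15. Tat shared its positive sign with Igfbp1 in both feeding states. Of 10 measured clock genes, 2 were positive and 8 negative after fasting, with a median of -0.304. There Arntl was called higher, at 2.11, and 3 were called lower, namely Dbp at -1.799, Ciart at -1.417 and Tef. The calls of Ciart and Tef were lost under other scalings, where they reached -0.847 and -0.735. After refeeding 3 of 9 were positive and 6 negative, with a median of -0.512. Arntl was called higher there at 1.19, a call lost under another scaling (0.48), and 0 were called lower. The part of hormones or of the clock in the enzyme differences was not tested.

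Tat had the largest range of the 9 members over the arrays, 1.29 on the log2 scale, and was used to look for genes of like pattern. Over 14446 other genes measured well above background on each array, the 5 nearest by the root mean square distance of their log2 levels, each centred on its own mean, were Mtap (0.028), Clca3a1 (0.041), Igsf11 (0.052), Ctps2 (0.055) and P2ry14 (0.064). Mtap acts in methionine salvage and Ctps2 in CTP synthesis. The distance rests on 4 arrays and on the main scaling alone. All 5 distances are smaller than the measurement SE of a difference, 0.20 for the members, so the ranking is not fixed at this precision. The 5 genes are also dimmer than Tat, with Mtap at -2.32 in the fasted Cont liver against 4.46 for Tat.

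Markers of liver cell types also differed between the arrays, and not every marker followed its list. The summed level of the 8 macrophage markers was 79.2 in the fasted Cont, 97.0 in the fasted Drp1LiKO, 87.7 in the refed Cont and 163 in the refed Drp1LiKO liver, in units of the 75th percentile of each array. Of these, 6 and 7 had a positive genotype difference after fasting and refeeding, and Itgam was at -0.88 and -0.66. The summed level of the 9 hepatocyte markers was 3790, 2520, 4501 and 3170 in the same order of arrays. Under the main scaling the hepatocyte sum was lower in each Drp1LiKO liver than in its Cont liver. Of the 9 markers, 1 had a positive genotype difference in each feeding state. Under other scalings up to 4 were positive after fasting and up to 3 after refeeding. The median hepatocyte marker differed by -0.62 after fasting and -0.48 after refeeding, and over the scalings by -0.68 to 0.00 and -0.48 to -0.09, while Cps1 was at 0.60 and 1.24, the second value called. The 8 stellate cell markers had a median of 0.82 after fasting, with Col1a1, Col1a2 and Col3a1 called higher. There 6 were positive and 2 negative, Reln at -0.74 and Des at -0.08. After refeeding their median was 0.04, of either sign over the scalings, with 5 positive and 3 negative. The neutrophil markers had a median of -1.04 over 5 after fasting, 1 positive and 4 negative, with S100a8, S100a9 and Retnlg called lower. After refeeding their median was 0.48 over 6, and 0.04 at its lowest over the scalings. There 4 were positive and 2 negative, with 3 or 4 positive over the scalings. S100a9 and Mpo were called higher, Ly6g was at 0.02, and Retnlg (-0.74) and Elane (-0.25) were negative. The calls of S100a8 after fasting and of Mpo, which was well above background on 1 array, were lost under another scaling. The part of cell composition in these differences was not tested.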

How the data were processed

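Liver RNA of 4 groups was measured on 1 one-color Agilent array each. The intensity values deposited by the authors are processed signals of the scanner files, background-subtracted within each array and not normalized between arrays. Per the submitters' processing notes the software was Agilent Feature Extraction 9.5.1.1, while the file headers give 10.7.1.1. A second deposited table holds linear values of 39429 probes whose sorted columns are the same on all arrays, that is, intensity values after quantile normalization by the authors, and it was used as an alternative. The authors' methods name another array design than the labels, and the scanner files carry the design of the labels.

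Spots flagged as outliers were left out, repeated spots were averaged, and log2 signals were set relative to the 75th percentile of each array. Of the 39392 probes used, 28358 carry a RefSeq accession, and the RefSeq table of GRCm38.p6 held 26733 of them. A gene was read from its probe well above background on the most arrays, then by highest mean signal. Differences were called at 2-fold. The number of arrays limits the precision, and SE values cover measurement error only. The additive model was fitted with limma 3.58.1 in R 4.3.3 over genes that 2 or more arrays marked as well above background, with Benjamini-Hochberg adjustment at 0.05. The steps were tested on simulated data. There, limma called more unchanged genes than its nominal rate when the error differed between genes, so its adjusted p-values may be too small.

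All 9 members are described in full. Other degradation genes are named where called in the same direction in both feeding states or both genotypes, other lists with up to 4 genes of large difference each, and the 5 genes most like the member with the largest range; exceptions are marked. The members, lists and motifs were chosen with earlier results of these data known. The alternatives were median scaling, quantile normalization, the authors' normalized values, normexp (offset 50), the median over probes, genes well above background on all 4 arrays, a 1.5-fold threshold, and for limma an intensity trend and a model without the other term. Cyclic loess was added after seeing the data.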

Additional observations from a re-analysis of the deposited data

Results flagged for a closer look

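Opposite signs of the same difference in the compared groups drew attention to 5 members. None of these contrasts was tested, since each group is 1 array. The genotype difference of Hal was negative after fasting and positive after refeeding, apart by 0.79 (SE 0.29), and its refeeding difference was of opposite sign in Cont and Drp1LiKO by the same 0.79. The genotype difference of Tdo2 was positive after fasting and negative after refeeding, apart by -0.63 (SE 0.29). For Gldc the genotype differences were apart by 0.48 (SE 0.29), with a value near 0 after fasting whose sign depends on the scaling. The refeeding differences of Hpd in Cont and Drp1LiKO were apart by 0.32 and those of Kmo by 0.077, both within 2 measurement SE.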

How the results depend on the processing

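The genotype difference of Tat was positive after fasting and after refeeding under every alternative, and its call depended on the setting. After fasting 1 member, Tat, was called, except with median scaling (0) and with a 1.5-fold threshold (3, with Hpd and Prodh). After refeeding 0 were called, and Tat alone (1) under median scaling, quantile normalization, normexp, the authors' normalized values, cyclic loess and the 1.5-fold threshold. For refeeding in Cont the count of 0 became 1 (Sds) under cyclic loess and 2 (Sds and Gldc) at 1.5-fold. In Drp1LiKO it became 2 (Tdo2 and Sds) under quantile normalization, the authors' values and cyclic loess, 1 (Sds) with the median over probes, which brings in its dim probe, and 3 (Tdo2, Sds and Prodh) at 1.5-fold. For the difference of the refeeding differences it became 1 (Sds) with the median over probes and 3 (Tdo2, Hal and Prodh) at 1.5-fold. In limma, the 0 members called for genotype became 1, Tat, with normexp, with genes well above background on all 4 arrays and with an intensity trend, and limma called 0 for refeeding under all alternatives. All genes called by limma for genotype numbered 0 as written, 319 with median scaling, 498 with normexp, 474 with the trend, 1214 with genes on all 4 arrays, 1 without the feeding term and 0 otherwise; for refeeding 15 were called with genes on all 4 arrays and 0 otherwise. At 1.5-fold the shares of all genes called higher and lower were 14.4% and 13.8% for genotype after fasting, 14.8% and 15.3% after refeeding, 10% and 11.7% for refeeding in Cont, 17.5% and 14.9% in Drp1LiKO, and 12% and 13.8% for the difference of the refeeding differences. The cause of these changes was not tested. No paired analysis was possible because each group is 1 array with 1 replicate number. Single differences are limited by the measurement SE and by the lack of replicates, and the dim probes of Sds and Acmsd by their signal over background.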
